A study of Mus musculus with 13 samples.

Results

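The 78 mitochondrial ribosomal protein genes of the mouse were followed through binding maps of BLIMP1 in 6 cell types. They were taken from a RefSeq gene table by symbol, as the protein-coding genes named Mrpl or Mrps plus a number. Of 21887 protein-coding genes on chromosomes 1 to 19, X and Y, 49 were Mrpl genes, named for the large subunit, and 29 were Mrps genes, named for the small subunit. The symbol rule holds no binding value, but the genes were chosen with earlier results of these data known.

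Mitochondria carry their own ribosome, which makes the few proteins encoded by mitochondrial DNA, all of them parts of the oxidative phosphorylation complexes. Its ribosomal RNAs come from mitochondrial DNA, but its proteins are encoded in the nucleus, made in the cytosol and imported. BLIMP1, the product of Prdm1, is a zinc-finger transcriptional regulator known for its role in plasma cell differentiation, in specifying primordial germ cells (PGC), and in the development of the intestine and the retina.

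All cells were C57BL/6 mouse cells homozygous for a knock-in that adds EGFP to the N-terminal end of BLIMP1, and chromatin was precipitated with a polyclonal antibody to GFP. No cells without the tag were among the samples, so binding of the antibody elsewhere was not measured here. PGC-like cells (PGCLC) came from embryonic stem cells, induced into epiblast-like cells over 36 h and then cultured for 2 days with LIF and BMP4 (d2 PGCLC, sorted for KIT), or for 6 days with LIF, BMP4, BMP8a, SCF and EGF (d6 PGCLC, sorted for SSEA1 and integrin β-3). E12.5 PGC were sorted for SSEA1 from male and from female embryos, 1 library each. Intestinal epithelium of E16.5 embryos was sorted for GFP and EPCAM, and photoreceptor precursors of postnatal day 4 for GFP. Plasmablasts were B cells stimulated with IL-4 and LPS for 3 days and sorted for GFP and CD138. Each of the other 5 cell types had 2 libraries. The sorts on GFP select for the tagged protein itself, and the files hold no expression, so the labelled cell types could not be checked by markers.

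A summit is the single base at which a called peak of precipitated DNA is highest. The lists hold positions only, with no height, and ran between 7998 summits (intestinal epithelium replicate 1) and 76185 summits (d6 PGCLC replicate 1). Read depth was unknown, and a longer list may come from deeper sequencing or from another calling threshold. Cell input, in units of 1e5 cells, ran between 3 and 30 per library. A gene counts as bound where both libraries of the cell type list a summit at most 1 kb away from either of its ends. No test was run on the members: counts are set beside the same count over all protein-coding genes, and with 2 libraries per cell type the spread is given as both library values.

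The promoters of 4 members bound in at least 4 cell types are shown as the sequence at or next to which the summits lay. The nearest summit fell inside the printed window in 12 of 12 libraries for Mrps33, in 5 of 12 for Mrps27, whose other summits lay further upstream, in 9 of 9 libraries with a summit for Mrps15, and in 7 of 10 for Mrpl48. Each is the RefSeq sequence (GRCm38.p6) of 250 bases before and 50 bases after a listed start site, read in the direction of the gene. Capitals mark CTTCCGG, a core of ETS-family sites, in Mrps33 and Mrps27, and GAAAGTG, a core of the BLIMP1 site as commonly given, in Mrps15. None of the searched motifs was in the printed window of Mrpl48, but CTTCCGG lay at -34 to -28 bp from another of its listed starts (100583130). The windows are chr6:39810887-39811186 on the minus strand for Mrps33, chr13:99344536-99344835 on the plus strand for Mrps27, chr4:126046678-126046977 on the plus strand for Mrps15 and chr7:100607573-100607872 on the minus strand for Mrpl48.
Mrps33: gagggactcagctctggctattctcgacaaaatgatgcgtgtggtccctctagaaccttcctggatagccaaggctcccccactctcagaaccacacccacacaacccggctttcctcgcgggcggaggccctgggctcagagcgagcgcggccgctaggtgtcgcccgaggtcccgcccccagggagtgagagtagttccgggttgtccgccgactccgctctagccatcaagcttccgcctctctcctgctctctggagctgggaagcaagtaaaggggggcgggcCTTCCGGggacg
Mrps27: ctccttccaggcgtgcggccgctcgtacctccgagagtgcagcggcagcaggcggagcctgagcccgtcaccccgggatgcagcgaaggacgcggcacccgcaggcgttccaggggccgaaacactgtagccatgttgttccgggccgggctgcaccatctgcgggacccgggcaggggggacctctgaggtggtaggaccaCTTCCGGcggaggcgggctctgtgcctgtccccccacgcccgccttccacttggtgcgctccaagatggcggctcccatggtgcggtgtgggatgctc
Mrps15: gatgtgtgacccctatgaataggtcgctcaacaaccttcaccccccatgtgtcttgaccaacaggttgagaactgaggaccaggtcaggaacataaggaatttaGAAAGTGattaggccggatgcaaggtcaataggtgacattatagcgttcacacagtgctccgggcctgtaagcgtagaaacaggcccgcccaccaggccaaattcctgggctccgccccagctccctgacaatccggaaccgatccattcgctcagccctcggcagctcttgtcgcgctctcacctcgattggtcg
Mrpl48: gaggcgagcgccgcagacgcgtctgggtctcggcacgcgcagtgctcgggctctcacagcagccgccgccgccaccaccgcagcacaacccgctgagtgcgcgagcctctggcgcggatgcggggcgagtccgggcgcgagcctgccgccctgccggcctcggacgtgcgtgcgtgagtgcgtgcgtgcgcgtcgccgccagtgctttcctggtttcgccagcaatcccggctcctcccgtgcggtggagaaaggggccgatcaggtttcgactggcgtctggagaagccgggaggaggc

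In plasmablasts 62 of the 78 mitochondrial ribosomal protein genes were bound (79.5%), against 39.6% of the other protein-coding genes, a ratio of 2.01. Over all 21887 genes the share bound in plasmablasts was 39.7%. The first plasmablast library had a summit near 62 members and the second near 69, that is 79.5% and 88.5% of them, against 42.5% and 45.3% of the other genes. Taken alone, the libraries gave ratios of 1.87 and 1.95. Both ratios were above that of every library of the other 5 cell types, the highest of which was 1.68 in intestinal epithelium replicate 2.

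In the other 5 cell types the ratio lay between 0.76 and 1.33. In d2 PGCLC 5 members were bound (6.41%), against 8.41% of the other genes and 8.41% of all genes. In d6 PGCLC 8 were bound (10.3%), against 9.72% of the other genes and 9.72% of all genes. E12.5 PGC had 4 bound members (5.13%), against 5.79% of the other genes and 5.79% of all genes. Intestinal epithelium had 6 (7.69%), against 7.29% of the other genes and 7.29% of all genes. Photoreceptor precursors had 10 (12.8%), against 9.67% of the other genes and 9.68% of all genes. In that order of cell types the ratios were 0.76, 1.06, 0.89, 1.06 and 1.33.

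The 2 libraries of these cell types often disagreed on members. Summits lay near 6 and 17 members in the d2 PGCLC libraries and near 29 and 9 in the d6 PGCLC libraries. The male E12.5 PGC library had a summit near 6 members and the female near 9. In intestinal epithelium the numbers were 9 and 22, and in photoreceptor precursors 11 and 18. The second intestinal library gave 28.2% of members against 16.8% of other genes, and the second photoreceptor library 23.1% against 14.5%, a ratio of 1.59. In the first libraries of these cell types the ratios were 1.20 and 1.16.

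Within each of the 6 cell types the library with the longer list had summits near more members. Across cell types, the longest list, d6 PGCLC replicate 1 with 76185 summits, had a summit near 37.2% of members and 35.9% of other genes, a ratio of 1.03. Plasmablast replicate 1, with 40750 summits, had a summit near 79.5% of members and 42.5% of other genes. Every list was also reduced to 7998 summits by dropping summits at random, separately in each library. The expected share bound in plasmablasts was then 4.74% of members against 2.77% of other genes, a ratio of 1.71. At that length the share of members was higher in intestinal epithelium (5.37%, against 5.18% of other genes) and in photoreceptor precursors (5.85%, against 4.66%). Random dropping seldom keeps a site in both libraries where lists are long, and intestinal epithelium replicate 1 lost no summit. The order of cell types at that length therefore cannot show what equal sequencing depth would give.

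**Figure D1:**
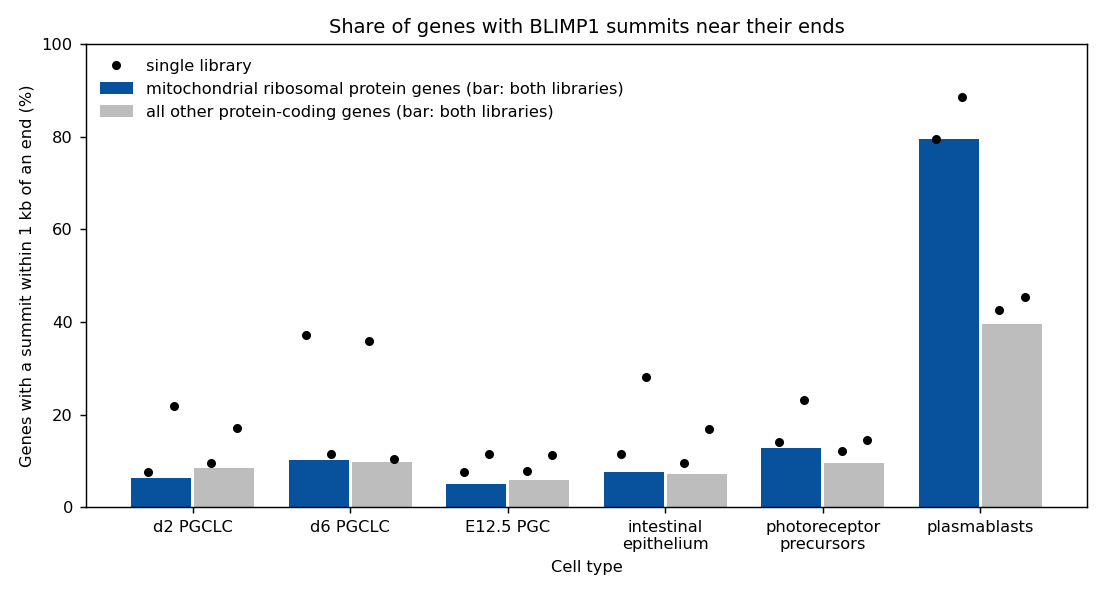
Share of genes (%) with BLIMP1 summits within 1 kb of a gene end in 6 cell types, for the 78 mitochondrial ribosomal protein genes (blue bars) and the other 21809 protein-coding genes (grey bars). Bars count genes with a summit in both libraries and points show each library alone. The blue bar stands at 79.5% in plasmablasts against 39.6% for the grey bar, while in the other 5 cell types blue bars lie between 5.13% and 12.8%.

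With the window narrowed to 0.5 kb, 54 members were bound in plasmablasts (69.2%), against 31.8% of the other genes and 31.9% of all genes, a ratio of 2.18. In d2 PGCLC 4 members were bound at 0.5 kb, where 5.3% of all genes were. The d6 PGCLC count was 5 (5.9% of all genes), that of E12.5 PGC 3 (3.81%), of intestinal epithelium 5 (5.07%) and of photoreceptor precursors 7 (7.28%). At this width the ratios outside plasmablasts lay between 0.97 and 1.27. With the window widened to 5 kb, 68 members were bound in plasmablasts, where 50.3% of all genes were. The d2 PGCLC count at 5 kb was 8 (17.8% of all genes), that of d6 PGCLC 14 (19.2%), of E12.5 PGC 5 (12.2%), of intestinal epithelium 8 (12.9%) and of photoreceptor precursors 15 (15.5%).

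Most members bound anywhere were bound in plasmablasts and in no other cell type. Of the 78, 63 were bound in at least 1 cell type (80.8%; 44.4% of all genes) and 45 in plasmablasts only (57.7%; 25.7% of all genes). For 16 of these 45 (20.5% of the 78, against 9.29% of the other genes), no library of another cell type listed a summit within 1 kb. Binding in at least 3 cell types was seen for 7 members (8.97%), next to 8.66% of all genes. Both genes bound in all 6 cell types, 2 of 78 (2.56%), stand beside 2.28% of all genes. In a germ-lineage cell type 9 members were bound (11.5%, against 12.4% of other genes).

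**Figure D2:**
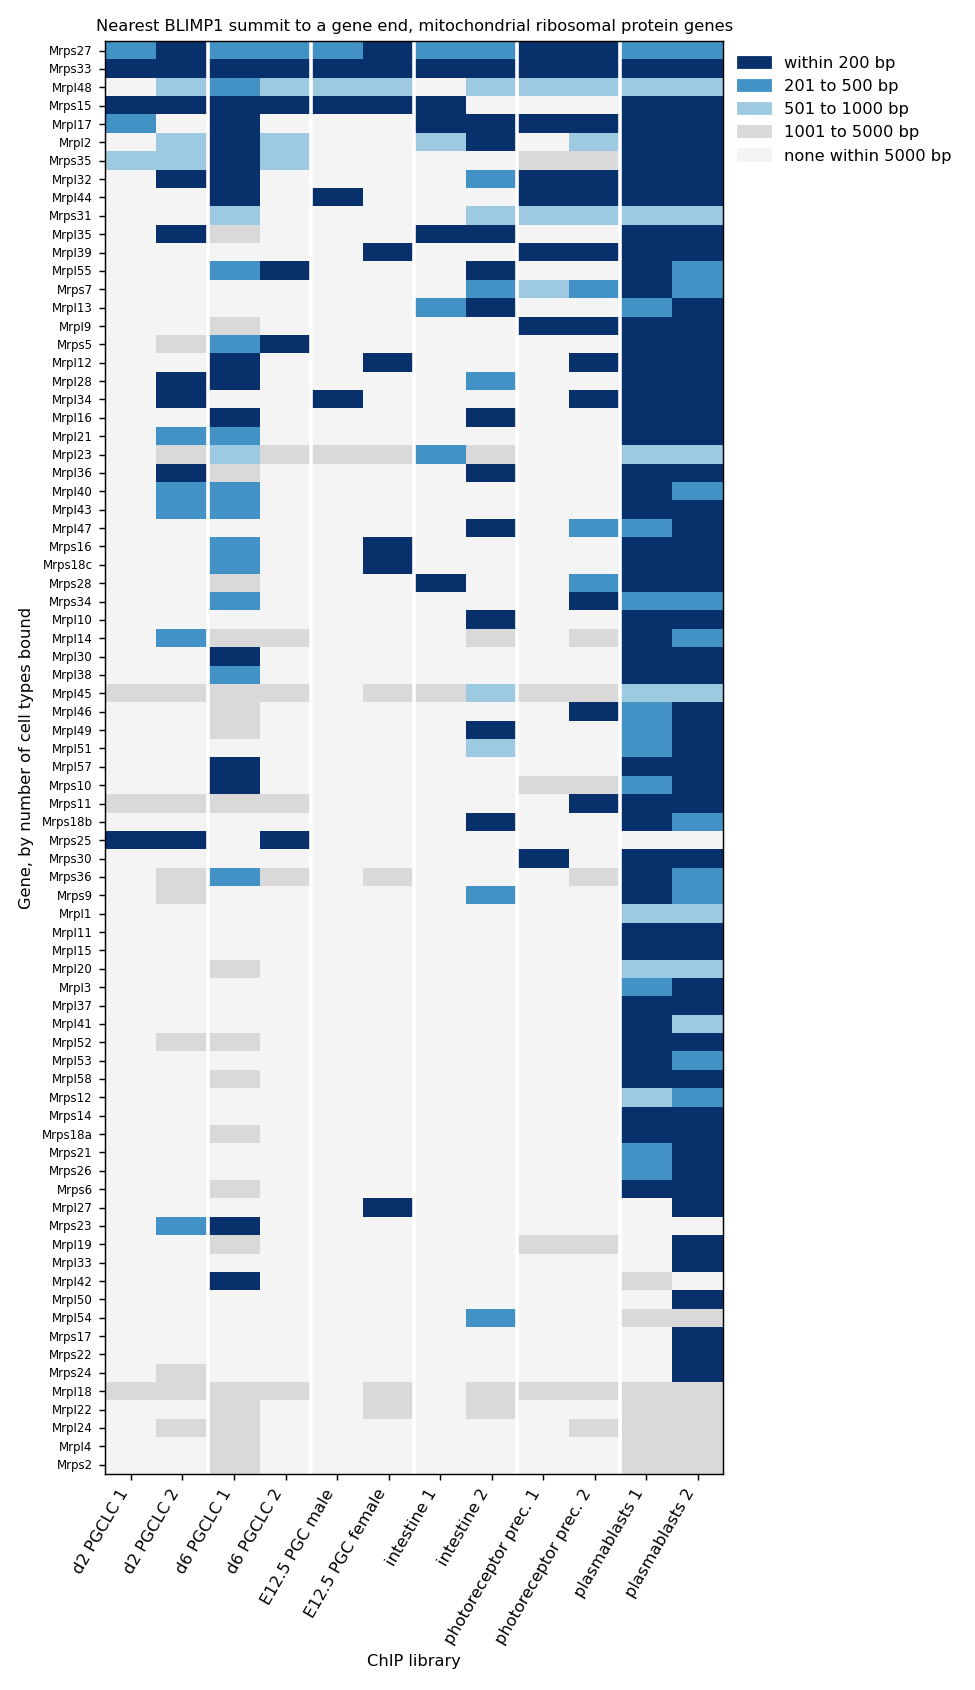
Distance from the nearest BLIMP1 summit to the nearer gene end for each of the 78 genes (rows, ordered by the number of cell types in which the gene was bound) in each of 12 libraries (columns, in pairs by cell type), as 5 distance classes. The 2 plasmablast columns are filled down most of the list, with a summit within 1 kb in 62 and 69 genes, while the other columns are filled in 6 to 29 genes.

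The 2 members bound everywhere were small-subunit genes. Mrps33, a protein without a bacterial counterpart (chr6:39801804-39810936), had a summit just upstream of its start site in all 12 libraries. The distances upstream were 43 and 16 bp in d2 PGCLC, 33 and 12 bp in d6 PGCLC, 20 and 51 bp in male and female E12.5 PGC, 68 and 78 bp in intestinal epithelium, 75 and 44 bp in photoreceptor precursors, and 39 and 74 bp in plasmablasts. Thus all 12 nearest summits fell within 78 bp of the start, inside the promoter printed above, where CTTCCGG lies 38 to 44 bp after the start.

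Mrps27 encodes a pentatricopeptide-repeat protein of the small subunit (chr13:99344767-99415562). Its nearest summits lay upstream of the start in every library. Counted from the start, with negative values upstream, they were at -307 and -149 bp in d2 PGCLC, -366 bp in both d6 PGCLC libraries, -250 and -104 bp in male and female E12.5 PGC, -279 and -263 bp in intestinal epithelium, -117 and -83 bp in photoreceptor precursors, and -277 and -291 bp in plasmablasts. The start site of Ptcd2, another pentatricopeptide-repeat gene, lies 108 bp away on the opposite strand. In 10 of the 12 libraries the summit lay beyond the start of Ptcd2, and the lists cannot assign it to one gene of the pair.

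Mrpl48, a large-subunit gene (chr7:100545779-100608301), was bound in 4 cell types when gene ends were used. Measured to its nearest of 4 listed start sites, a summit was present in all 12 libraries, and by start sites it was bound in all 6 cell types. These were not all summits at the same start. In 10 libraries the nearest start was the one whose promoter is printed above (100607622). In d2 PGCLC replicate 1 and intestinal epithelium replicate 1 it was the start at 100583130, further inside the gene. Neither of these libraries had a summit within 5 kb of a gene end. Signed distances to a start, positive downstream, were 224 and 8 bp in d2 PGCLC, 255 and -11 bp in d6 PGCLC, -159 and -9 bp in male and female E12.5 PGC, 362 and 78 bp in intestinal epithelium, -37 and -48 bp in photoreceptor precursors, and 24 and 94 bp in plasmablasts. A start of Rab6a, a small GTPase of Golgi traffic, lies 36 bp from a start of Mrpl48 in the opposite direction.

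Mrps15, the counterpart of a bacterial small-subunit protein (chr4:126046928-126055536), was bound in all 3 germ-lineage cell types and in plasmablasts. Summits lay upstream of the start by 56 and 123 bp in d2 PGCLC, 105 and 101 bp in d6 PGCLC, 78 and 67 bp in male and female E12.5 PGC, and 14 and 103 bp in plasmablasts. Intestinal epithelium had a summit in the first library only, 20 bp downstream, and photoreceptor precursors had none within 5 kb. In its promoter GAAAGTG spans the bases from 146 to 140 before the start. The centre of this core was 87 and 20 bp from the nearest summit in d2 PGCLC and 38 and 42 bp in d6 PGCLC. It was 65 and 76 bp away in male and female E12.5 PGC, 163 bp in intestinal epithelium replicate 1, and 129 and 40 bp in plasmablasts.

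Another 3 genes were bound in 3 cell types each. Mrpl17, with a bacterial counterpart (chr7:105803782-105811087), was bound in intestinal epithelium (summits 35 and 36 bp from the gene end), photoreceptor precursors (130 and 91 bp) and plasmablasts (28 and 60 bp). Mrpl2, which encodes a protein at the core of the peptidyl transferase region (chr17:46646172-46650132), was bound in d6 PGCLC (100 and 689 bp), intestinal epithelium (906 and 18 bp) and plasmablasts (196 and 35 bp). An end of Klc4, which starts head to head with Mrpl2, lies 17 bp from that of Mrpl2. Mrps35, a small-subunit protein specific to mitochondria (chr6:147042728-147070906), was bound in d2 PGCLC (868 and 894 bp), d6 PGCLC (165 and 854 bp) and plasmablasts (56 and 59 bp).

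Mrps25 alone was bound in another cell type and not in plasmablasts, next to 4.68% of the other genes. Its start had summits 141 and 7 bp away in the d2 PGCLC libraries, 144 bp away in d6 PGCLC replicate 2, and none within 5 kb in the remaining 9 libraries. It encodes a small-subunit protein (chr6:92169512-92184023).

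Several members were bound in plasmablasts and in 1 other cell type. In d6 PGCLC these included Mrpl55 (207 and 24 bp in d6 PGCLC, 11 and 289 bp in plasmablasts) and Mrps5 (314 and 190 bp in d6 PGCLC, 8 and 130 bp in plasmablasts). The Mrps5 summits of d6 PGCLC lay near the gene's 3′ end and those of plasmablasts at its start. In intestinal epithelium they were Mrpl35 (10 and 24 bp) and Mrpl13 (322 and 109 bp). In photoreceptor precursors Mrpl39 had summits 1 and 20 bp from its end, Mrpl9 at 37 and 40 bp, and Mrpl32, whose protein is matured by an inner-membrane protease, at 49 and 74 bp.

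Among the 10 members with the summits nearest to a gene end in both plasmablast libraries, some had few or none elsewhere. Mrps18a had summits 16 and 11 bp downstream of its start in plasmablasts and none within 1 kb in the other 10 libraries. Mrpl15 had summits 39 and 21 bp from its gene end in plasmablasts and none within 5 kb in the other 10. Mrps30 had summits 20 and 33 bp upstream in plasmablasts and 1 further summit, 56 bp upstream, in photoreceptor precursors replicate 1. Although their symbols place them in the small subunit, the proteins of Mrps18a and Mrps30 sit in the large subunit by structure. For Mrpl12, a stalk protein also known to bind the mitochondrial RNA polymerase, the plasmablast summits lay 9 and 34 bp upstream. Single libraries of d6 PGCLC, E12.5 PGC (female) and photoreceptor precursors listed Mrpl12 as well, at 60, 117 and 59 bp.

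The remaining genes of that group of 10 were Mrpl21 (3 and 40 bp from a gene end in plasmablasts), Mrps16 (22 and 43 bp), Mrpl28 (50 and 2 bp) and Mrpl30 (56 and 35 bp), with Mrps35 and Mrpl17 given above. Mrpl3, a core protein with a bacterial counterpart, had plasmablast summits at 270 and 34 bp and none within 5 kb in another library. Mrps12, a protein of the decoding centre, had them 643 and 418 bp upstream of its start, which lies 147 bp from that of Sars2, the mitochondrial seryl-tRNA synthetase. Mrpl58, a peptidyl-tRNA hydrolase built into the ribosome, had them at 90 and 59 bp from a gene end. Mrpl45, which anchors the ribosome to the inner membrane, had them 7 bp downstream and, as a signed distance, -27 bp from its start, which lies inside the interval the table gives. Mrps36, named with the small subunit but known as a component of the 2-oxoglutarate dehydrogenase complex, had summits 35 and 459 bp downstream of its start in plasmablasts.

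Large- and small-subunit genes were bound in nearly equal shares in plasmablasts. There 39 of 49 large-subunit genes (79.6%) and 23 of 29 small-subunit genes (79.3%) were bound, a difference of 0.28 percentage points. In the single plasmablast libraries this difference was 0.28 and -1.90 points. Placing Mrps18a and Mrps30 with the large subunit gave 80.4% of 51 large-subunit genes and 77.8% of 27 small-subunit genes. At start sites the shares were 90.7% of 43 large-subunit and 84.6% of 26 small-subunit genes.

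The few members bound outside plasmablasts were divided otherwise in the germ lineage. In d2 PGCLC none of the 49 large-subunit genes and 5 of the 29 small-subunit genes (17.2%) were bound, next to 8.41% of all genes. For d6 PGCLC the counts were 3 large (6.12%) and 5 small (17.2%), next to 9.72%. E12.5 PGC had 1 large (2.04%) and 3 small (10.3%), next to 5.79%. Intestinal epithelium had 4 large (8.16%) and 2 small (6.90%), next to 7.29%. Photoreceptor precursors had 6 large (12.2%) and 4 small (13.8%), next to 9.68%. In d2 PGCLC replicate 1 a summit lay near 2.04% of large- and 17.2% of small-subunit genes, whereas in replicate 2 it lay near 22.4% of large- and 20.7% of small-subunit genes. Thus the split in d2 PGCLC was present in only 1 of its libraries. Small-subunit genes had the higher share in both libraries of d6 PGCLC (41.4% and 20.7%, against 34.7% and 6.12%) and of E12.5 PGC (10.3% and 17.2%, against 6.12% and 8.16%). The same order held in both photoreceptor precursor libraries and in intestinal epithelium replicate 1. It was reversed in intestinal epithelium replicate 2 (20.7%, against 32.7% of large-subunit genes). The germ-lineage counts are not separate observations, since Mrps33, Mrps27 and Mrps15 were bound in d2 PGCLC, d6 PGCLC and E12.5 PGC alike. They are the 3 small-subunit genes of E12.5 PGC and belong to the 5 of d2 PGCLC and the 5 of d6 PGCLC. With counts this small no difference between subunits was tested.

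Summits in plasmablasts lay at start sites. RefSeq promoters gave start sites for 69 of the 78 members and for 17423 other genes. Both plasmablast libraries listed a summit within 1 kb of a start for 61 of these 69 members (88.4%), against 41.7% of the other genes and 41.9% of all genes with a start, a ratio of 2.12. The first library did so for 61 members and the second for 67. All 56 members with a listed start that were bound at a gene end in plasmablasts were bound at the start, next to 93.8% of the other genes bound at an end. Of the nearest summits, 82.0% and 80.6% in the 2 libraries fell within 200 bp of the start in members, against 59.1% and 62.7% in other genes. Their median distance to the start was 69 and 85 bp in members and 154 and 141 bp in other genes. Members were also nearer in every library of the other cell types. For example, the medians were 75 and 78.5 bp in members and 160 bp in other genes in both photoreceptor precursor libraries. In male E12.5 PGC, with 6 such members, they were 98 bp in members and 220.5 bp in other genes. In d2 PGCLC replicate 1, with 7 such members, they were 224 and 254 bp. Several of the other medians also rest on few members, for example 7 in d6 PGCLC replicate 2.

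Members bound at the start numbered 5 (d2 PGCLC), 6 (d6 PGCLC), 4 (E12.5 PGC), 6 (intestinal epithelium) and 10 (photoreceptor precursors). The shares over all genes with a start were 8.11%, 9.38%, 5.84%, 7.53% and 10.4% in the same order. The bound members were 7.25%, 8.70%, 5.80%, 8.70% and 14.5% of the 69.

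**Figure D3:**
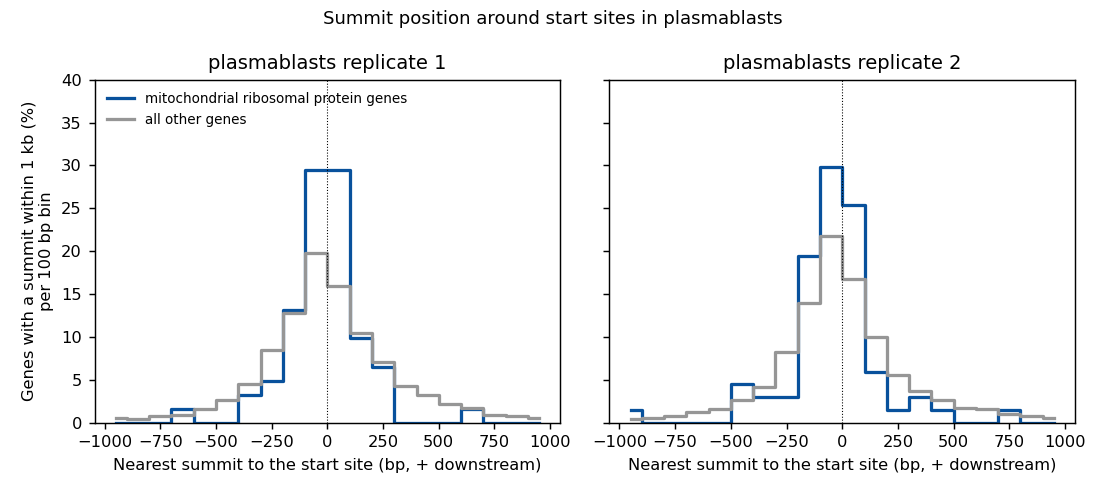
Position of the nearest summit relative to the start site (bp, positive downstream, bins of 100 bp) in the 2 plasmablast libraries, as the percent of genes with a summit within 1 kb of a start. Blue lines are mitochondrial ribosomal protein genes (61 and 67 genes) and grey lines all other genes (7706 and 8251). Blue lines stand higher within 100 bp of the start, with medians of 69 and 85 bp from the start against 154 and 141 bp for grey.

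Start sites changed the state of members whose gene interval in the table begins upstream of the listed start. By gene ends, 15 members were bound in no cell type, and 5 of them, Mrpl18, Mrpl22, Mrpl24, Mrpl4 and Mrps2, had no library with a summit as near as 1 kb to an end (40.3% of all genes had none). Plasmablast summits nevertheless lay 1978 and 1428 bp from an end of Mrpl18, 1728 and 1534 bp from Mrpl22, 1497 and 1484 bp from Mrpl24, 1661 and 1729 bp from Mrpl4, and 2046 and 2084 bp from Mrps2. For the 4 of these with a listed start, the same summits were within 282 bp of it: 107 and 46 bp for Mrpl22, 84 and 71 bp for Mrpl24, and -69 and -31 bp for Mrps2, with negative values upstream. Each of the 78 members had a summit at most 5 kb from an end in some library, whereas 28.1% of the other genes had none.

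Of the 69 genes with a start, 8 were not bound there in plasmablasts. For Mrpl50, Mrpl33, Mrps17, Mrps22, Mrps24 and Mrpl27 the second plasmablast library listed a summit at the start and the first did not. For Mrps25 and Mrpl42 neither library did.

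The promoters of the members were rich in CpG, the dinucleotide whose density marks CpG-island promoters. Over the 300 bases listed per gene, the median ratio of observed to expected CpG was 0.82 in the 69 members and 0.57 in the other genes. All promoters were ranked by this ratio and cut into 3 equal classes. None of the members fell in the lowest class, 28 fell in the middle class and 41 in the highest (59.4%, against 33.2% of the other genes). Among the other genes binding rose with this ratio. In plasmablasts 6.91% of other genes in the lowest class, 44.3% in the middle and 74.0% in the highest were bound at the start. The shares of other genes rose in the same order in every other cell type, for example 1.54%, 7.74% and 13.4% in intestinal epithelium.

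Within classes, 26 of 28 members in the middle class were bound in plasmablasts (92.9%, against 44.3% of the other genes), and 35 of 41 in the highest class (85.4%, against 74.0%). In the highest class d2 PGCLC had 1 bound member of 41, d6 PGCLC 2, E12.5 PGC 0, intestinal epithelium 2 and photoreceptor precursors 5. Among other genes of that class the share bound in these cell types lay between 9.22% in E12.5 PGC and 18.2% in photoreceptor precursors, above the members' share in each of the 5. In the middle class it was the reverse. There 4 of 28 members (14.3%) were bound in each cell type except photoreceptor precursors, which had 5 (17.9%). The shares of other genes in that class were 9.74% (d2 PGCLC), 10.7% (d6 PGCLC), 6.72% (E12.5 PGC), 7.74% (intestinal epithelium) and 11.1% (photoreceptor precursors). These counts rest on 5 members or fewer and no difference was tested. The classes are broad, and members and other genes of the same class may still differ in CpG ratio, which was not compared. The part of CpG content in the plasmablast count was not tested beyond this split.

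**Figure D4:**
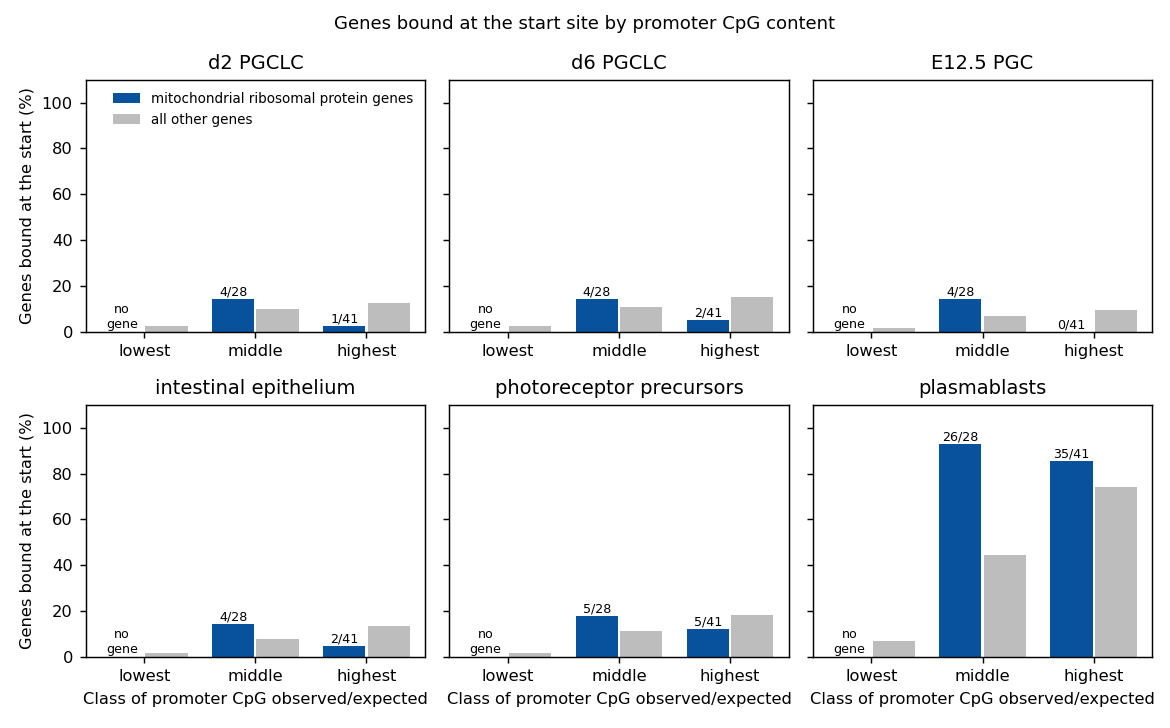
Share of genes bound at the start site (%) by class of promoter CpG observed/expected in 6 cell types, for mitochondrial ribosomal protein genes (blue, with bound genes over all genes of that class printed above each bar) and all other genes (grey). In plasmablasts 26 of 28 and 35 of 41 members were bound in the middle and highest classes, against 44.3% and 74.0% of the other genes. None of the members is in the lowest class.

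Shared promoters were common among the members. For 25 of 69 members (36.2%) another gene started within 1 kb in the opposite direction, head to head, against 9.50% of the other genes. Members with such a partner were bound at the start in plasmablasts in 23 of 25 cases (92.0%, against 83.6% of other genes with a partner). Members without one were bound in 38 of 44 cases (86.4%, against 37.3% of other genes without one). A summit between 2 starts counts for both genes, and the lists do not tell which gene it belongs to.

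In 5 of the 25 cases the partner was itself a gene of the mitochondrial lists, with the members counted in. Mrpl46 and Mrps11, of the large and the small subunit, start 42 bp apart and shared a summit in 3 libraries, so they are not independent observations. Mrpl47 is paired with Ndufb5, a subunit of respiratory complex I (308 bp), Mrps12 with Sars2 (147 bp), and Mrpl43 with Twnk, the mitochondrial DNA helicase (116 bp). Other partners include Psma2, a proteasome subunit, for Mrpl32 (205 bp) and Tcp1, a chaperonin subunit, for Mrpl18 (238 bp).

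Motifs were searched on both strands of the 69 promoters. A core of the BLIMP1 site (GAAAGTG, or the same bases in another order as GTGAAAG) was present in 9 members (13.0%), against 8.08% of the other promoters and 8.10% of all. Of these, 8 held the first form and 1, Mrpl32, the second. CTTCCGG, of the ETS family, was in 25 members (36.2%, against 11.8% of the other promoters and 11.9% of all). TGCGCA, part of the site of nuclear respiratory factor 1 (NRF1), was in 21 (30.4%, against 9.98% and 10.1%). Factors of the ETS family and NRF1 are known regulators of nuclear genes for mitochondrial proteins. Both forms of the BLIMP1 core can overlap on a strand: 107 of the other promoters and 0 members held both. Where a match of either form adjoins a match of the ETS core, the matches can overlap by at most 1 base. A match of TGCGCA cannot overlap one of the ETS core. A match describes only the letters of the window.

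All 9 members with a BLIMP1 core were bound at the start in plasmablasts, as were 52 of the 60 without one (86.7%). Among other genes the shares in plasmablasts were 43.0% with a core and 41.6% without. In photoreceptor precursors 4 of 9 members with a core and 6 of 60 without were bound at the start, beside 18.9% and 9.60% of other genes. Intestinal epithelium had the opposite order in members, with 0 of 9 bound with a core and 6 of 60 without, beside 15.6% and 6.82% of other genes. In d2 PGCLC 1 of 9 members with a core and 4 of 60 without were bound, beside 16.1% and 7.41% of other genes. The counts were 1 of 9 and 5 of 60 in d6 PGCLC (16.55% and 8.75% of other genes), and 1 of 9 and 3 of 60 in E12.5 PGC (13.4% and 5.17%).

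The core sites of the 4 members bound at the start in photoreceptor precursors are given with up to 10 bases on either side, in the direction of the gene, with the core in capitals (in Mrpl32 and Mrps31 the core is read on the opposite strand). They lie at chr13:14612988-14613007 (Mrpl32, minus strand), chr3:94443137-94443163 (Mrpl9, plus strand), chr17:12916258-12916284 (Mrpl18, minus strand) and chr8:22411198-22411224 (Mrps31, plus strand) of GRCm38.p6.
Mrpl32: gttgctgctgCTTTCACtac
Mrpl9: aagctctgtgGAAAGTGgtgacaaaaa
Mrpl18: agaaaggcgcGAAAGTGgaaaacggaa
Mrps31: tcatcctgttCACTTTCtccggtctgc

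For Mrpl32 the centre of the core was 6 and 31 bp from the nearest summit in the photoreceptor precursor libraries and 23 and 2 bp in the plasmablast libraries. The values were 41 and 44 bp in photoreceptor precursors and 22 and 107 bp in plasmablasts for Mrpl9. For Mrpl18 they were 30 and 98 bp in photoreceptor precursors and 462 and 88 bp in plasmablasts, and for Mrps31 27 and 44 bp in photoreceptor precursors and 139 and 178 bp in plasmablasts. At all 4 sites each photoreceptor precursor summit lay within 98 bp of the core. The sites were chosen as cores in promoters of members bound at the start in this cell type, which already places summits near them. Over members with a summit at the start, its median distance to the start was 75 and 78.5 bp in the photoreceptor precursor libraries. Whether summits lay nearer to a core than to other promoter bases was not tested.

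Genes of mitochondrial translation, transcription and DNA maintenance outside the symbol rule numbered 72, and 61 of them were bound in plasmablasts (84.7%, next to 39.7% of all genes). Elsewhere d2 PGCLC had 4 of them bound (5.56%, next to 8.41% of all genes), d6 PGCLC 7 (9.72%, next to 9.72%), E12.5 PGC 3 (4.17%, next to 5.79%), intestinal epithelium 6 (8.33%, next to 7.29%) and photoreceptor precursors 8 (11.1%, next to 9.68%). By group, the plasmablast count was 5 of 5 further ribosomal subunits such as Dap3, 16 of 21 genes of mitochondrial tRNA charging, and 8 of 10 translation factors. It was 22 of 24 genes of ribosome assembly and ribosomal RNA modification and 10 of 12 genes of mitochondrial transcription and DNA maintenance. Among those not bound in plasmablasts were Polrmt, the mitochondrial RNA polymerase, Polg, the mitochondrial DNA polymerase, and Mtif2, an initiation factor. The plasmablast summits of Mtif2 lay 1061 and 1030 bp from a gene end and those of Polg 1467 and 1665 bp, while Polrmt had a summit in the second library alone, at 391 bp.

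In this wider set 4 genes were bound in at least 3 cell types. Lars2, the mitochondrial leucyl-tRNA synthetase, and Tefm, a transcription elongation factor of mitochondria, were bound in all 6. Summits near Lars2 lay 644 to 688 bp from a gene end in the 10 libraries of the other cell types but 72 and 24 bp in plasmablasts. Malsu1, an assembly factor of the large subunit, and Mettl17, an assembly factor of the small subunit, were bound in 5 cell types each, without intestinal epithelium for Malsu1 and without E12.5 PGC for Mettl17.

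Nuclear-encoded subunits of oxidative phosphorylation, which assemble with the products of this ribosome, were bound in plasmablasts in 64 of 86 cases (74.4%). The 86 cytosolic ribosomal protein genes were bound there in 74 cases (86.0%). Over all genes the share bound in plasmablasts was 39.7%. In photoreceptor precursors 22 cytosolic ribosomal protein genes (25.6%) were bound, beside 10 mitochondrial ones (12.8%) and 9.68% of all genes. No list was tested against another.

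**Figure D5:**
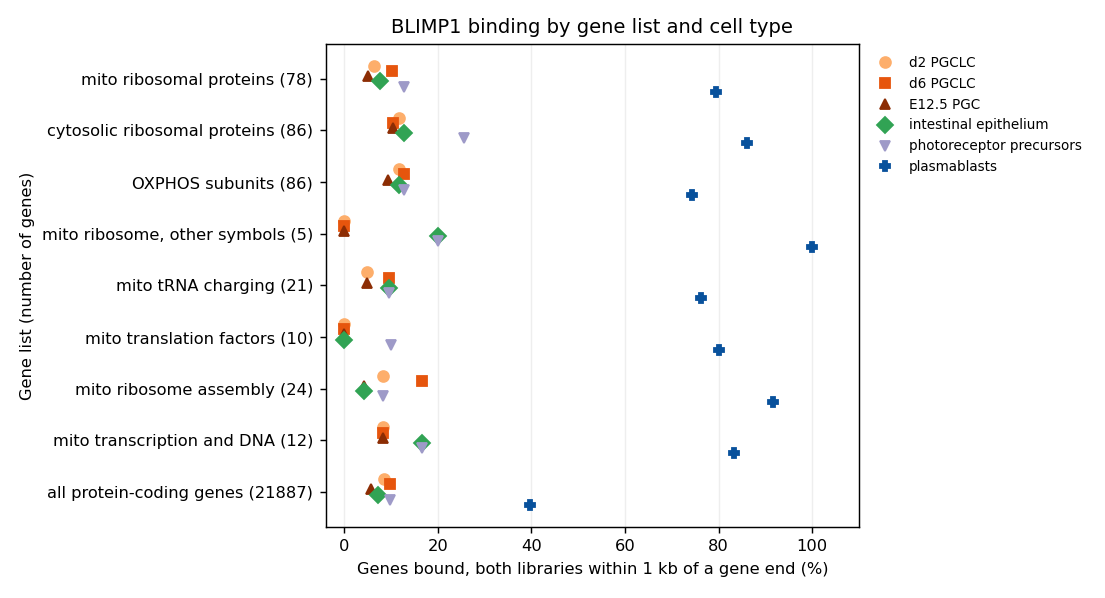
Share of genes bound (%, both libraries within 1 kb of a gene end) for 8 gene lists and for all protein-coding genes (rows), by cell type (symbols). In plasmablasts the list of 78 mitochondrial ribosomal protein genes stands at 79.5%, the cytosolic ribosomal proteins at 86.0% and the oxidative phosphorylation subunits at 74.4%, against 39.7% of all genes.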

How the data were processed

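The 12 ChIP libraries came from 6 cell types with 2 libraries each, grouped by the labels. For E12.5 PGC the pair is 1 male and 1 female library. An input library of E12.5 male PGC was not used. The submitters' processing notes name MACS2 2.1, Bowtie 1.1.2, Trim Galore 0.3.7 and cutadapt 1.7.1, and the build mm10. The authors deposited 1 list of summit positions per library, without score or height; threshold, control and counting base (0 or 1) of the positions are not given in the sources used here, and a distance may be off by 1 bp. Whether replicates came from separate animals or cultures is not stated.

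Gene intervals came from a RefSeq table and start sites, strands and promoters from RefSeq promoter sequences, both of GRCm38.p6, which has the coordinates of mm10. Distances were taken to the nearer gene end, or to the nearest listed start. Equal classes of CpG observed/expected and motif matches were computed over 300 bases per gene, from the first listed promoter. Values were computed with Python 3.11.15, pandas 2.3.3, NumPy 2.4.6 and SciPy 1.17.1, drawn with matplotlib 3.10.9, and the counting was tested on simulated data. No significance test was run. Named genes followed a rule: members bound in at least 3 cell types, up to 5 per other cell type and 10 in plasmablasts with the nearest summits, those bound only outside plasmablasts, 8 fixed genes, and other mitochondrial genes bound in at least 3 cell types. The members, lists and rule were chosen with earlier results of these data known, and the splits by CpG content, by head-to-head partner and by motif, and further named genes, were chosen after values were seen. Of the other lists only Mtrfr was not matched. Alternatives changed the window, the end used, the library rule and the list length.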

Additional observations from a re-analysis of the deposited data

How the results depend on the processing

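No paired analysis was possible because the results are counts and shares from no test. The lowest plasmablast ratio over the alternatives listed here was 1.71, against 2.01 as reported, and the cause of the changes was not tested. The splits of genes given elsewhere are not among these alternatives. In plasmablasts, members and other genes were closer in the highest CpG class (85.4% against 74.0%) and with a head-to-head partner (92.0% against 83.6%). They were also closer with another gene end within 1 kb (81.8% against 63.4%). The middle CpG class (92.9% against 44.3%) and genes without a partner (86.4% against 37.3%) kept a wide gap. With a 0.5 kb window, 5 members were bound in d6 PGCLC, the ratio of member to other share was 1.01 in E12.5 PGC and 2.18 in plasmablasts, and the large-minus-small difference in plasmablasts was -5.07 percentage points. With 5 kb, 8 members were bound in d2 PGCLC and 14 in d6 PGCLC, the ratios were 0.93 in d6 PGCLC, 0.53 in E12.5 PGC and 1.74 in plasmablasts, and the subunit difference was 7.04 points. By start sites alone the ratios were 0.93 in d6 PGCLC, 0.99 in E12.5 PGC and 2.12 in plasmablasts, and the subunit difference 6.08 points. Counting a summit in either library gave 18, 30, 11, 25 and 19 bound members in d2 PGCLC, d6 PGCLC, E12.5 PGC, intestinal epithelium and photoreceptor precursors. Other genes rose as well, and the ratios in that order were 1.26, 1.05, 1.05, 1.68 and 1.43. In plasmablasts the ratio was 1.83 and the subunit difference -1.90 points. Requiring summits at most 200 bp apart gave ratios of 1.00 in d6 PGCLC (0.996), 1.00 in E12.5 PGC and 2.15 in plasmablasts, and a subunit difference of -1.62 points. With every list reduced to 7998 summits, the expected number of bound members was 0.74 (d2 PGCLC), 0.72 (d6 PGCLC), 1.33 (E12.5 PGC), 4.19 (intestinal epithelium), 4.56 (photoreceptor precursors) and 3.70 (plasmablasts), with a plasmablast ratio of 1.71, 12.6 bound in any cell type and 6.61e-05 in all 6. At that length plasmablasts no longer had the highest share of members bound (4.74%, against 5.37% in intestinal epithelium and 5.85% in photoreceptor precursors), but the ratio to other genes was still highest there, since 2.77%, 5.18% and 4.66% of other genes were bound in these cell types. Summits were dropped at random in each library separately, which lowers the both-library share most where lists are long. This order of cell types therefore cannot show binding at equal depth. Among genes with no other gene end within 1 kb, which leaves 34 members, 3, 3, 1, 3, 5 and 26 were bound in d2 PGCLC, d6 PGCLC, E12.5 PGC, intestinal epithelium, photoreceptor precursors and plasmablasts, 27 in any and 1 in all 6. The ratios were then 1.22 (d2 PGCLC), 1.08 (d6 PGCLC), 0.63 (E12.5 PGC), 1.57 (intestinal epithelium), 1.85 (photoreceptor precursors) and 2.41 (plasmablasts), and the subunit difference -6.32 points. By structure the subunit difference was 2.61 points. Leaving out either library of a cell type gave d2 PGCLC 6 to 17 bound members, d6 PGCLC 9 to 29, E12.5 PGC 6 to 9, intestinal epithelium 9 to 22, photoreceptor precursors 11 to 18 and plasmablasts 62 to 69. For d2 PGCLC the ratio then ran over 0.80 to 1.28, for d6 PGCLC 1.03 to 1.11, for E12.5 PGC 0.97 to 1.02, for intestinal epithelium 1.20 to 1.68, for photoreceptor precursors 1.16 to 1.59 and for plasmablasts 1.87 to 1.95, and the subunit difference over -1.90 to 0.28 points. Without the d2 PGCLC replicate 1 library the d2 PGCLC ratio crosses 1, and without the male library so does that of E12.5 PGC. Summit lists without height or depth cannot show a weak site that was not called.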

Other observations

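Among members with another gene end within 1 kb, 36 of 44 were bound in plasmablasts (81.8%, against 63.4% of other genes with such a neighbour). Of the same 44 members, d2 PGCLC had 2 bound (4.55%, against 12.1% of other genes with a neighbour), d6 PGCLC 5 (11.4%, against 14.5%), E12.5 PGC 3 (6.82%, against 9.18%), intestinal epithelium 3 (6.82%, against 12.4%) and photoreceptor precursors 5 (11.4%, against 14.9%). These differences rest on 2 to 5 bound members each and were not tested.

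CTTCCGG was present in 22 of the 61 members bound at the start in plasmablasts and in 3 of the 8 not bound there, and TGCGCA in 19 of the 61 and 2 of the 8.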
